A study of Mus musculus with 8 samples.

Results

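Of 42006 array probes, 76 gave clear signal in embryonic stem cells (ESC) and next to none in trophectoderm cells (TE). They were chosen by signal: the sample-channel spot signal had to be at least 4 times the local background on all 4 ESC arrays and under 2 times on all 4 TE arrays. Of the 16656 probes that met the ESC condition, 0.456 percent met both. The fall from ESC to TE is therefore the selection itself and is given as a description. The limits applied to both genotypes on all 8 arrays, so they also confine the genotype difference, above all in TE: the wild-type TE arrays alone let 278 probes through, the lamin B null TE arrays alone 81, and both together 76. The reference channel played no role in the choice. All 76 passed the filter on dim probes, and they passed it through the ESC arrays, where they are bright.

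Each of the 8 two-colour arrays compared total RNA of 1 mouse sample (Cy3) with a common reference (Cy5) made of 2 parts RNA pooled from 11 cell lines and 1 part RNA of 129ES cells. There were 2 arrays each for wild-type ESC, lamin B null ESC (both Lmnb1 and Lmnb2 deleted), wild-type TE and lamin B null TE. The ESC were male lines derived from blastocysts of crosses between double-heterozygous mice, and every group carried a randomly integrated, puromycin-selected pCAG-Cdx2ER-IP transgene, whose product is activated by tamoxifen. The ESC groups were grown without tamoxifen. The TE groups came from the same lines after 2 days in 30% TS medium with FGF4, heparin and 4-hydroxytamoxifen and a further 6 days in full TS medium. The labels name 2 independent lines per genotype but not which array holds which, so p-values measure the spread between these arrays, part of which may be technical. The wild-type TE labels contradict themselves, since title and genotype name the wild type and the genetic modification field a knockout. Title and genotype were followed for grouping, and the array data gave no check of the deletion. All 4 ESC arrays lay on 1 slide and all 4 TE arrays on the other, so slide and cell type cannot be told apart. The probes carry no gene names in the files used here, so no marker gene of either cell type could be looked up, and the fall of a probe is described without its gene. In bulk RNA, fewer cells of a type and less RNA per cell cannot be told apart.

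Trophectoderm is the outer layer of the blastocyst and gives rise to the placenta, and ESC stand for the inner cell mass, from which the embryo forms. The transcription factor Cdx2 drives the trophectoderm fate, and its activation in ESC is known to turn down the genes that keep the pluripotent state. B-type lamins are structural proteins of the nuclear lamina beneath the inner nuclear membrane, where much silent chromatin lies. The series title asks how these lamins associate with genes during differentiation and whether they affect expression, and for these probes the comparison is how low the signal went with and without them.

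The probes are 60 bases long, and some of the 76 share sequence with one another. The first sequence below is the probe brightest in ESC. The next 3 overlap one another, with their common 26 bases in capitals, and the last 2 share 53 bases, in capitals. The overlapping sets are shown because each gives separate spots for what is left in TE, read from the same RNA on the same arrays. All sequences are copied from the deposited scanner files, with no genome position since no genome was used here.
Z00010943-1: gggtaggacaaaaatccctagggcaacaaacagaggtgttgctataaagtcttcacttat
Z00005385-1: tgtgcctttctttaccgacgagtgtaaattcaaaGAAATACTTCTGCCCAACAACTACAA
Z00048105-1: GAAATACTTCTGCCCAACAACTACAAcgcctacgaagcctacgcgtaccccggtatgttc
Z00076661-1: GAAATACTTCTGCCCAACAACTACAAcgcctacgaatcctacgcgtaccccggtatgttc
Z00034770-1: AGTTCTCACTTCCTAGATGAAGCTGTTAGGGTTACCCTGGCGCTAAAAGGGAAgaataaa
Z00075128-1: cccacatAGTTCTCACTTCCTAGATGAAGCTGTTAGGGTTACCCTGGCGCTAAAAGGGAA

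The full-length neighbours Z00048105-1 and Z00076661-1 differ by G37T alone, counted from 1 at the 5′ end with the base of Z00048105-1 first. Taking a shared run of at least 20 bases on the same strand as overlap, 11 of the 76 fell into 5 groups, so the 76 probes stand for at most 70 separate stretches of RNA. Another 3 overlapped a probe outside the set. Mean GC content was 42.5 ± 7.09 percent (SD over the 76), against 44.0 percent in probes on in ESC and 44.2 percent in all probes. The hexamer AATAAA, searched on the printed strand, was present in 4 of the 76 (5.26 percent), against 8.69 percent of probes on in ESC and 6.93 percent of all probes.

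The set was mostly dim in ESC. The median spot signal was 7.18 and 9.03 times local background on the wild-type ESC arrays 1 and 2, and 7.17 and 6.19 times on the lamin B null ESC arrays 1 and 2. By geometric mean over the ESC arrays, 48 of the 76 lay between 4 and 8 times background, 19 between 8 and 16, 8 between 16 and 32, and 1 above 32. The same bins held 2437, 3207, 2995 and 8017 probes that were on in ESC, so the members made up 1.97, 0.592, 0.267 and 0.0125 percent of them. Bright ESC probes thus rarely met the TE condition, and a dim probe needs a smaller fall to do so.

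Z00010943-1 was the brightest member and had the deepest fall. Its signal was 88.1 and 82.6 times background in wild-type ESC and 49.2 and 41.8 times in lamin B null ESC. In TE the same probe read 1.77 and 1.53 times background in wild type and 1.99 and 1.95 times in lamin B null. All 4 ESC values stood far above all 4 TE values, by the selection, and the TE spots of wild-type array 1 and lamin B null array 2 carried the scanner's flag for being well above background. Net of local background, 1.18 and 0.785 percent of the wild-type ESC signal was left on the wild-type TE arrays, and 1.97 and 1.89 percent of the lamin B null ESC signal on the lamin B null TE arrays.

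Other bright members went down to the level of the array's own blank spots. Z00027126-1 read 36.1 and 18.0 times background in wild-type ESC and 48.7 and 17.0 in lamin B null ESC, then 1.44, 1.29, 1.82 and 1.59 on the TE arrays (here and below wild type 1 and 2, then lamin B null 1 and 2). It was not well above background on any TE array. Its loess-normalized sample signal was 14.7-fold lower in wild-type TE than in wild-type ESC. That signal contains an added offset, which shrinks the fold, so the full fall may be larger. Net of local background, 2.08 and 1.47 percent of its wild-type ESC signal was left on wild-type TE arrays 1 and 2. Z00032042-1 behaved alike, with 20.8 and 21.7 times background in wild-type ESC, 31.8 and 22.4 in lamin B null ESC, and 1.48, 1.29, 1.84 and 1.58 in TE. Z00023767-1 read 19.0, 18.9, 17.9 and 9.02 times background in ESC and 1.36, 1.37, 1.65 and 1.42 in TE, which was only 1.04, 1.096, 1.04 and 1.01 times the median of the negative control spots.

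The remaining probes of the 12 brightest lay between 12.5 and 34.1 times background across the ESC arrays except Z00027110-1, which reached 46.8, and no TE value among them was above 1.97. Z00074445-1, the second brightest, read 28.6, 28.3, 34.1 and 27.0 times background in ESC and 1.53, 1.44, 1.92 and 1.93 in TE. The 3 overlapping probes shown above kept together: Z00048105-1 read 14.9, 17.7, 20.01 and 16.1 in ESC and 1.61, 1.41, 1.96 and 1.80 in TE. Z00076661-1, with the single changed base, read 13.4, 18.4, 17.8 and 14.1 in ESC and 1.71, 1.61, 1.97 and 1.54 in TE. Z00005385-1, displaced by 34 bases, was dimmer in ESC, at 12.2, 13.9, 13.6 and 8.59, and fell to 1.64, 1.39, 1.93 and 1.72. Over the 10 overlapping pairs the median absolute difference between partners was 0.15 on the log2 scale in ESC and 0.10 in TE. The selection limit keeps all members close together in TE, overlapping or not, so the TE value shows little about partners.

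**Figure D1:**
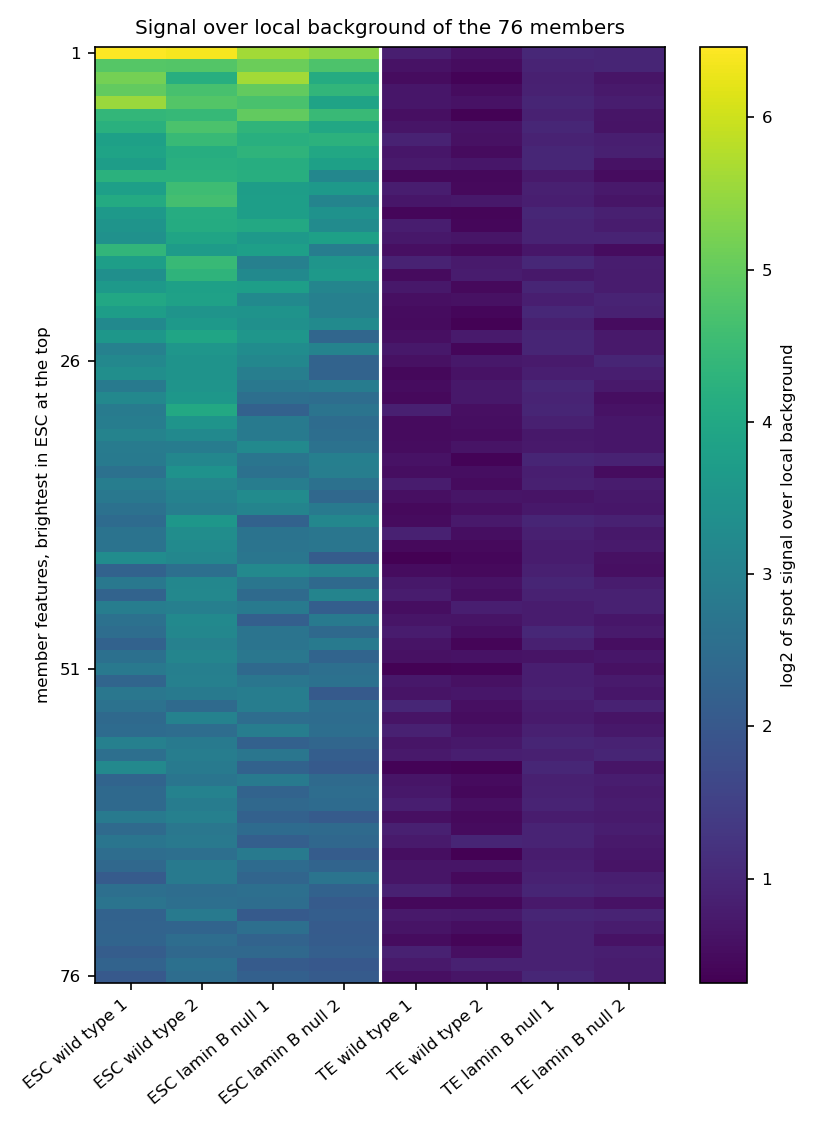
Each row is 1 of the 76 probes, ordered by ESC brightness, each column 1 array, and colour is log2 of spot signal over local background. The 4 TE columns are dark throughout by the selection; only 1 probe lies above 32 times background in ESC by its mean.

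**Figure D2:**
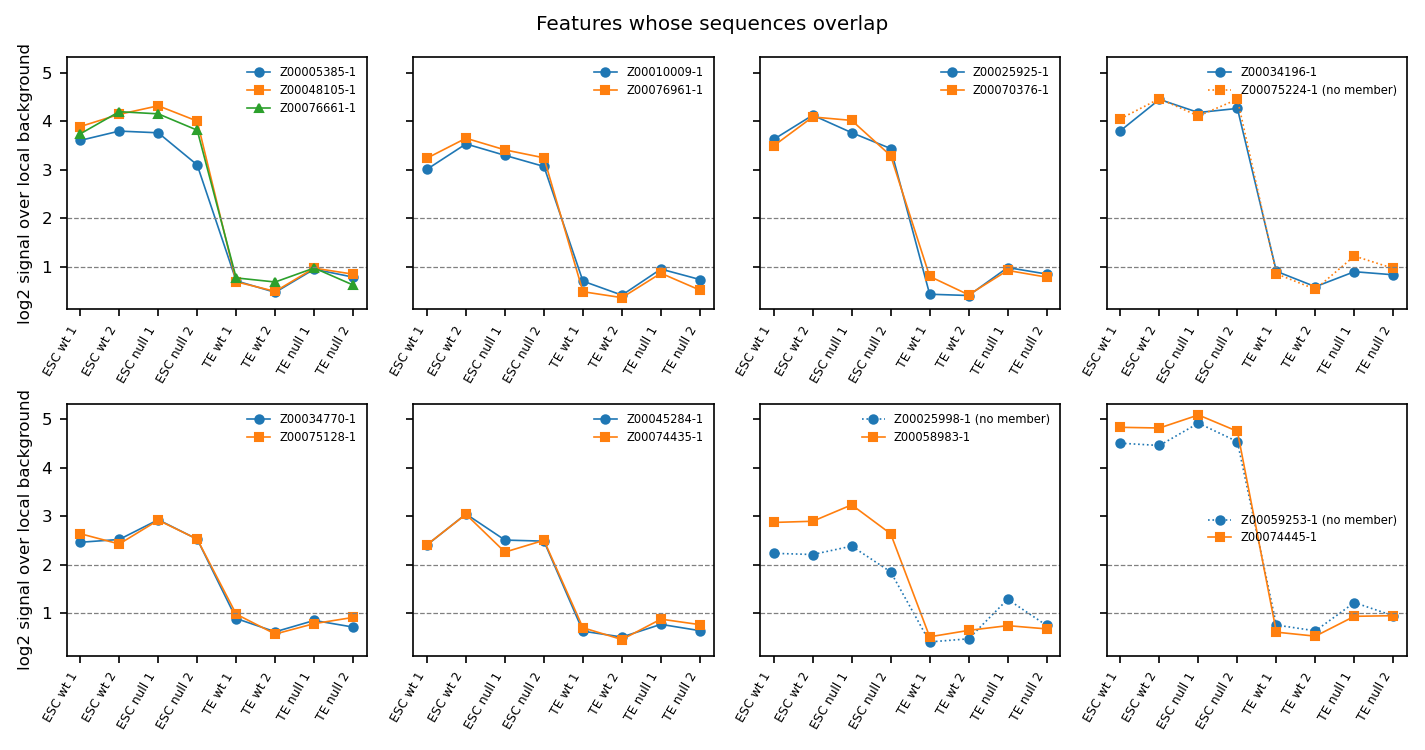
Log2 spot signal over local background on the 8 arrays for 8 groups of probes with overlapping sequence (wt, wild type; null, lamin B null; dotted lines, probes outside the set; dashed lines at 4 and 2 times background). Partners run close together, though the selection limit keeps all members close together in TE. The outside partners cross 2 times background only on lamin B null TE array 1.

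How far the set was shut was read against 153 negative control spots per array, which match no transcript. Members' median signal over local background was 1.56 and 1.47 on the wild-type TE arrays and 1.83 and 1.70 on the lamin B null TE arrays. The negative spots themselves stood at 1.31, 1.25, 1.58 and 1.42 on those arrays. Divided by the negative median, the members were at 1.19 and 1.17 in wild type and 1.16 and 1.20 in lamin B null. Before that division 47 members had both lamin B null TE arrays above both wild-type TE arrays, as had 59.9 percent of all probes; after it, 8 had (24.3 percent of all probes), and 14 had both below (12.3 percent of all probes). The higher lamin B null readings over local background thus moved with the negative spots of the same arrays.

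The median member stayed above the negative median on every TE array. The 5651 probes under 2 times background on all 8 arrays read 1.05, 1.07, 1.07 and 1.07 times the negative median, below the members on each array. Both sets were chosen by TE signal, and the 5651 probes also by dim signal in ESC, so the choice itself may set them apart. The members above the 95th percentile of the negative spots numbered 45 on wild-type TE array 1, 23 on array 2, 4 on lamin B null array 1 and 44 on array 2 (59.2, 30.3, 5.26 and 57.9 percent). Of the 5651 probes, 14.9, 6.34, 1.96 and 17.9 percent were above it, so the counts of both sets varied with the array. That percentile was 1.49, 1.54, 1.98 and 1.66 times background, so on lamin B null array 1 it nearly met the selection limit of 2 and few members could pass it. The scanner's flag marked 21, 7, 1 and 28 members as well above background (27.6, 9.21, 1.32 and 36.8 percent). It marked 2.07, 1.42, 0.0885 and 3.08 percent of the 5651 probes, and 63.7, 63.4, 61.2 and 68.0 percent of all probes.

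Most members were flagged on 1 TE array or none. No TE array was flagged for 35 members, 1 array for 27, 2 arrays for 13 and all 4 for Z00062817-1 alone. That probe read 6.48, 6.93, 4.51 and 5.20 times background in ESC and 1.71, 1.94, 1.90 and 1.67 in TE. It and Z00076661-1 were the only members flagged on both wild-type TE arrays, and only Z00062817-1 was flagged on both lamin B null TE arrays. Across genotypes, 12 members were flagged on both wild-type TE array 1 and lamin B null TE array 2, the arrays with the most flags. Across the 76 members, Pearson correlations of TE signal over background between arrays ran from 0.046 to 0.388, against 0.154 to 0.483 for the 5651 probes; arrays of 1 slide share probe composition and spot layout.

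**Figure D3:**
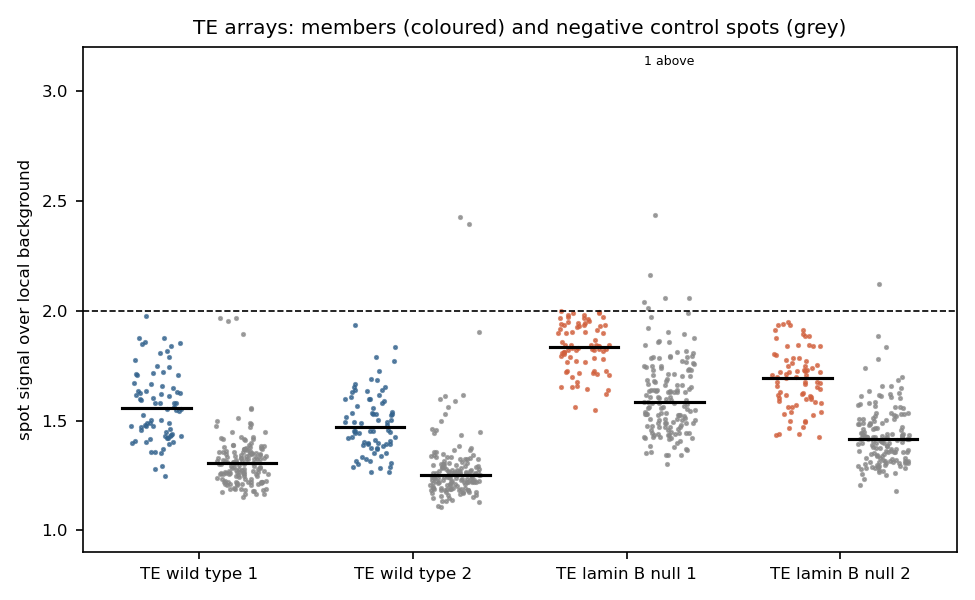
Spot signal over local background on the 4 TE arrays, 1 point per member (coloured, n = 76) or negative control spot (grey, n = 153), with medians as bars and the selection limit of 2 dashed; 1 negative spot lies above the axis. Members sit above the negative spots by their medians, and both shift up together on lamin B null array 1.

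Wild-type TE array 1 held more flagged members than wild-type array 2, but not more than lamin B null array 2. Members read higher on wild-type array 1 than on array 2 in 49 cases over local background and in 40 over the negative spots. The share of all probes was not counted, so nothing is read from these counts. Over local background, the negative spots had medians of 1.31 on array 1 and 1.25 on array 2. The 5651 probes had 1.37 and 1.34, and all probes 2.30 and 2.36. Relative to the mean of the other 3 TE arrays, the median member on wild-type TE array 1 was at 0.930 (0.782 to 1.16) over local background, with 16 above 1. Over the negative spots it was at 1.01 (0.846 to 1.26), with 43 above 1. The median member thus carried no excess over the mean of those arrays, which include both lamin B null arrays. Against wild-type array 2 alone, its share of ESC signal left was 8.95 against 8.25 percent net of local background. Net of the negative-spot median it was 3.69 against 4.37 percent. In the ratio to the other 3 arrays, single members lay on both sides of 1, as some could on any array. The selection limit caps every member on this array. The same ranking was not made for the other TE arrays, so whether single probes carried an excess was not tested.

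The probe with the largest excess on wild-type TE array 1 was Z00075128-1, at 1.16 times the mean of the others. It read 6.24, 5.39, 7.57 and 5.78 times background in ESC and 1.98, 1.49, 1.73 and 1.89 in TE. Its overlapping partner Z00034770-1, a separate spot, was among the 8 with the largest excess, with 5.52, 5.75, 7.62 and 5.77 in ESC and 1.86, 1.54, 1.81 and 1.64 in TE. On both spots wild-type array 1 was the highest TE array. As net signal, 25.6 percent of the ESC level of Z00075128-1 was left on wild-type TE array 1 and 12.1 percent on array 2; for Z00034770-1 the values were 24.5 and 14.6 percent. Lamin B null TE retained 10.4 and 11.97 percent for Z00075128-1 and 10.2 and 8.89 percent for Z00034770-1.

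The other probes among the 8 with the largest excess were Z00004354-1, Z00038456-1, Z00034196-1, Z00042185-1, Z00076855-1 and Z00009886-1, at 1.07 to 1.13 times the mean of the others. Z00034196-1 read 1.88, 1.504, 1.86 and 1.78 in TE, and the overlapping Z00075224-1, outside the set, read 1.81, 1.45, 2.33 and 1.96, so both were higher on wild-type array 1 than on array 2. Z00042185-1 was the only one of the 8 not flagged on wild-type TE array 1. The largest share of ESC signal left on any wild-type TE array belonged to Z00076855-1, with 26.8 percent on array 1 and 16.2 percent on array 2; its ESC signal was among the lowest, at 4.38, 5.21, 5.27 and 4.53 times background.

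Just 3 probes met every condition except on wild-type TE array 1. Z00018748-1 read 4.84, 6.17, 5.20 and 5.15 in ESC and 2.59, 1.61, 1.91 and 1.84 in TE. Z00076236-1 reached 2.34 on that array against 1.39, 1.88 and 1.55 on the other TE arrays, and Z00062192-1 reached 2.01 against 1.59, 1.90 and 1.86. Wild-type array 2 alone kept out 2 probes, lamin B null array 2 alone 7, and lamin B null array 1 alone 87. The one farthest above the limit on that array, Z00028401-1, read 54.8, 84.1, 35.0 and 49.2 times background in ESC and 1.80, 1.62, 4.29 and 1.504 in TE. Membership was therefore set mainly by lamin B null TE array 1, on which 60 of the 76 members had their highest TE value. The share of all probes highest there was not counted. Their median over local background was also highest there, at 2.96 against 2.30, 2.36 and 2.69 on the other TE arrays. Without lamin B null TE array 1, 163 probes met the rule. Nearest the limits, Z00060401-1 and Z00045899-1 were inside at 1.999 and 1.99 on that array and Z00051858-1 and Z00024955-1 outside at 2.003 and 2.003. At the ESC limit Z00027103-1 and Z00043981-1 were inside at 4.02 and 4.08, and Z00032746-1 and Z00023075-1 outside at 3.98 and 3.97.

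As a share of the ESC signal of the same genotype, net of local background and scaled to each array's 75th percentile, the median member kept 8.60 ± 0.49 percent in wild-type TE (SD, n = 2 arrays). In lamin B null TE it kept 10.0 ± 1.03 percent (SD, n = 2 arrays). With the negative-spot median taken off instead of local background, the shares were 4.03 ± 0.48 percent and 3.49 ± 0.46 percent, so the order of the genotypes turned. Members with the larger share in lamin B null numbered 43 of 76 by local background and 24 of 76 by negative spots. The smallest two-sided p of an exact permutation test with 2 arrays against 2 is 0.33, so that test could not pass 0.05, and the shares are given without one. Wild-type TE left under 10 percent for 45 members and under 5 percent for 18; in lamin B null TE these were 34 and 12. With negative spots as background these counts turned too, to 66 and 44 in wild type and 73 and 54 in lamin B null; without scaling between arrays 59 and 22 members were under 10 percent. Of the members, 50 had the scanner's flag on neither wild-type TE array. Their loess-normalized sample signal was 2.35-fold to 18.1-fold lower than in ESC, with a median of 4.30-fold. The 48 with the flag on neither lamin B null TE array were 2.39-fold to 17.0-fold lower, with a median of 3.83-fold. TE signals below the dimmest flagged probe of their array were raised to it. On the log2 scale that floor was 6.32 and 6.33 on the wild-type TE arrays, and 6.45 and 4.00 on the lamin B null TE arrays. The floor of 4.00 lay far below the members' mean signals, so the medians of the genotypes are not like measures. Raising signals to a floor shrinks these folds, as does the offset of 50 contained in the signals. The full falls may therefore be larger.

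**Figure D4:**
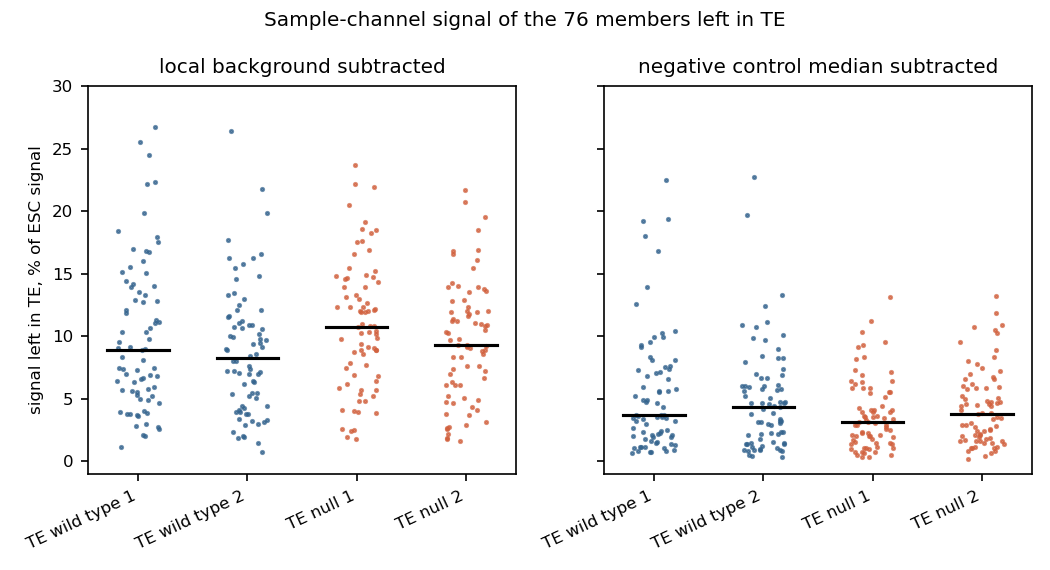
Net sample signal on each TE array as percent of the mean net ESC signal of the same genotype, 1 point per member (n = 76) with medians as bars; left, local background subtracted; right, the array's negative control median. The wild-type arrays have medians of 8.95 and 8.25 percent on the left and 3.69 and 4.37 percent on the right, the lamin B null arrays 10.8 and 9.31, then 3.17 and 3.82.

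On the normalized log2 ratio of sample over reference, the median member was lower in TE than in ESC by 2.13 in wild type (range 1.05 to 5.17) and by 1.95 in lamin B null (range 1.00 to 4.15). The medians over all probes were 0.0859 and 0.0756. The size of the fall depended on how dim spots were treated: the median TE minus ESC difference in wild type and lamin B null was -4.97 and -5.37 with the scanner's processed signals, and -5.20 and -5.56 from the authors' deposited table over its 41 members. With both of these the fall was the larger in lamin B null. limma called all 76 lower in both genotypes, where 25.5 and 24.6 percent of all tested probes were called lower; since the selection used these arrays, nothing is read from that count. On the normalized log2 ratio, 976 probes on in ESC fell at least as far as the median member in both genotypes. Of them 946 were no members, with a median of 4.08 times background on their lowest TE array. The offset shrinks the falls of dim spots most, so this comparison may set the members' falls too low. It was not made with the processed signals.

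The reference channel, which the selection did not use, showed that the members' spots on the TE slide had taken up label. Reference signal over background had medians of 3.70, 4.02, 3.48 and 3.67 on the ESC arrays and 3.13, 3.46, 2.92 and 3.00 on the TE arrays. It was well above background for 54, 68, 75 and 76 members on the ESC arrays and for 72, 72, 74 and 75 on the TE arrays. Over all probes the shares were 54.1, 58.6, 67.1 and 66.9 percent on the ESC arrays and 67.1, 67.8, 66.2 and 69.1 percent on the TE arrays. The authors' deposited table of log10 values lists 41 of the 76 (53.9 percent; 59.5 percent of all probes). In it those members had medians of 2.81, 2.78, 2.80 and 2.74 on the ESC arrays and 1.31, 1.22, 1.14 and 1.26 on the TE arrays, and the genotypes overlapped in TE.

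No member was called different between the genotypes in ESC, the one contrast in which the selection set a lower limit and no upper one. Fitted over 27359 probes with limma and Benjamini-Hochberg adjustment at 0.05, 0 of the 76 were called between genotypes within ESC, where 0.124 percent of all tested probes were called. With calls that rare over all probes, 0 of 76 says nothing particular about the members. Within TE 0 were called, where 0.0219 percent of all were, but the selection had removed any probe above 2 times background in either genotype, so nothing is read from that count. The same holds for the difference between the genotype effects, with 0 called (0 percent of all). At an unadjusted limma p under 0.05 the members numbered 5 in ESC, against 924 of the 27359 probes. In TE they numbered 1, against 956, and for the difference 3, against 597. Leaving out lamin B null TE array 1 left that group without a replicate. The members' median log2 value was then 0.36 in TE and 0.47 for the difference of effects. Over all tested probes these medians were 0.0037 and -0.0016.

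Absence of a call bounds only some members. In ESC the lamin B null minus wild-type difference ran from -1.04 to 1.11 on the log2 scale, with a median of -0.01, and 36 were positive. The 95% interval stayed inside a 2-fold band for 53 members (69.7 percent, against 86.3 percent of all tested probes). In TE the difference ran from -0.16 to 0.64, a narrow range that the limit of 2 times background in both genotypes imposes and that bounds nothing about the lamins. The TE ratios are between dim spots, and their median of 0.10 turned to -0.27 with the scanner's processed signals. It was 0.36 without lamin B null TE array 1 and -0.19 without lamin B null TE array 2.

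The 2 members with the widest genotype differences in ESC are named here after their values were seen. Z00037900-1 had log2 ratios of 2.21 and 1.92 in wild-type ESC and 1.07 and 0.99 in lamin B null ESC, so the groups did not overlap; the difference was -1.04 (SE 0.15) and the limma adjusted p was 0.148. Weighting the arrays by quality brought it to an adjusted p of 0.0321 in limma, the only member called by any fit of the genotype contrasts. The weighted fit called more probes in ESC altogether, 119 of 27359 against 34 in the main fit. The spots of Z00037900-1 read 9.22 and 7.27 against 4.76 and 4.19 times background. Z00028723-1 went the other way, with 1.496 and 1.45 in wild-type ESC and 2.91 and 2.25 in lamin B null ESC, a difference of 1.11 (SE 0.23) at a limma adjusted p of 0.426. Z00010943-1, the brightest, had 3.04 and 2.60 in wild type and 2.35 and 1.87 in lamin B null, a difference of -0.71 (SE 0.31) with a limma adjusted p of 1.00. These differences ran in both directions.

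**Figure D5:**
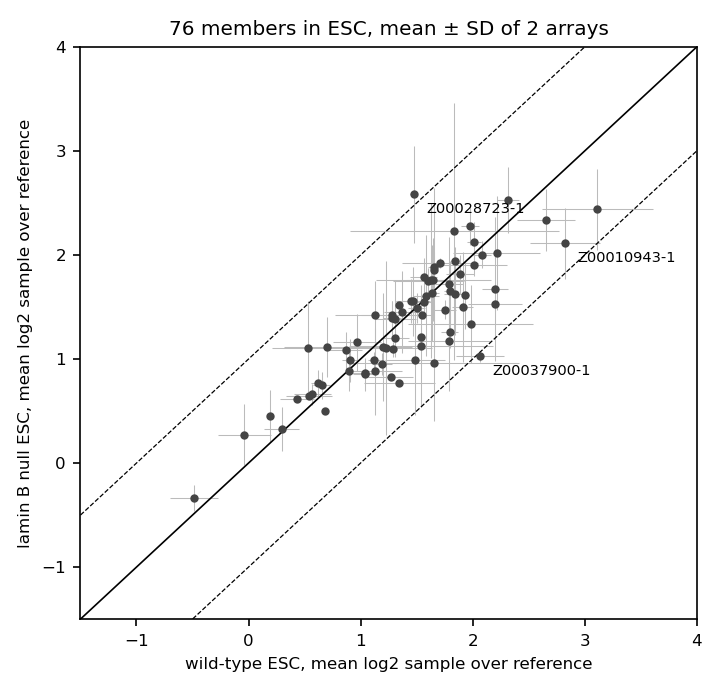
Mean log2 ratio of sample over reference in wild-type ESC (x) and lamin B null ESC (y) for the 76 members, with SD of the 2 arrays as bars, the line of equality, and dashed lines at a 2-fold difference. The estimates of 74 members lie within 2-fold; Z00037900-1 and Z00028723-1 lie outside on opposite sides.

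Within a genotype, some members differed more between the replicate arrays than between genotypes. Z00027126-1 was the clearest of the bright ones, with log2 ratios of 2.49 and 1.18 in wild-type ESC and 3.10 and 1.35 in lamin B null ESC. Its genotype difference was 0.39 (SE 0.67). Z00012976-1 ran in the opposite sense, at 5.51 and 11.9 times background in wild-type ESC and 4.75 and 8.94 in lamin B null ESC. The labels name 2 lines per genotype, and whether these differences follow the lines was not tested.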

How the data were processed

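Gene expression was measured with Agilent two-colour arrays. Per the file headers, the authors read the scans with Agilent's Feature Extraction software, version 9.5.1.1 (protocol GE2-v5_95_Feb07). Their deposited scanner files give linear intensity of spot and local background in each channel, scanner-processed intensity, and log10 of red over green. The deposited flags are 0 or 1 per spot, set by the scanner software per the file headers, and were used as a fraction over the spots of a probe. The deposited value table is on a log10 scale; its columns correlated at 0.9998 to 1.000 with each probe's mean log10 reference signal minus the array's log10 ratio, so higher values stand for more sample RNA.

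Control spots were left out, and spots with the same probe were averaged. For the fits, limma 3.58.1 in R 4.3.3 applied normexp with an offset of 50, within-array loess, a filter on dim probes that kept 27359, and 4 group means over 8 arrays with 4 residual degrees of freedom. The offset shrinks the fold of dim probes. The number of arrays limits the precision. The fit was tested on simulated data. Fold values of the sample channel were taken after loess and Aquantile. They contain the offset and are open to dye bias without a dye swap. Named probes were the 12 brightest in ESC, the 8 with the largest wild-type TE array 1 excess, those nearest each limit, and those kept out by wild-type TE array 1 alone; others were chosen after their values were seen. The gene lists prepared for this work were not used, since the tables used here do not pair these probes with genes. Members and lists were chosen with earlier results of these data known.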

Additional observations from a re-analysis of the deposited data

How the results depend on the processing

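The number of probes that met the rule moved with its limits: 147 with an ESC limit of 3 times background, 32 with 6, 0 with a TE limit of 1.5 and 299 with 2.5. It was 165 by the scanner's well-above-background flags. Chosen after seeing the data, a TE limit at the 95th percentile of negative spots gave 16, and using the wild-type TE arrays alone gave 278. Leaving out each array in turn gave 76 to 163, the highest without lamin B null TE array 1. The median share of ESC signal left in TE was, for wild type and lamin B null, 6.83 and 13.2 percent without scaling, 10.9 and 11.4 with median scaling, 22.6 and 25.1 from normexp signals, which contain the offset, and 4.03 and 3.49 from negative spots. Leaving out each array gave 8.18 to 9.01 percent in wild type and 8.99 to 10.9 in lamin B null. Members with the larger share in lamin B null ranged from 24 to 73 of 76. Divided by the negative median, a step added after seeing the data, TE signal was 1.19, 1.17, 1.16 and 1.20. The genotype calls among members stayed at 0 in ESC, TE and their difference under all alternatives run except array weights, which gave 1 in ESC. Over all probes, array weights called 119 of 27359 in ESC, against 34 in the main fit. With the replicate number as a block, over all arrays or within each cell type, 0 members were called in each contrast. Same-numbered deviations correlated at 0.641 between the ESC groups and 0.516 between the TE groups over all probes (0.701 and 0.123 over the members), a hint from the data that something was shared within a number. The labels do not say what a number marks, and 2 numbers are too few to settle a pairing. TE values lie near background, which limits every TE comparison.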
